A study of Mus musculus with 8 samples.

Results

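The growth hormone, STAT5 and IGF axis was described through 10 genes, taken by symbol from a fixed list out of the 23337 gene symbols counted in the liver RNA-seq libraries. The list held the growth hormone receptor *Ghr*, the transcription factors *Stat5a* and *Stat5b*, the feedback and response genes *Socs2*, *Cish* and *Bcl6*, and the circulating IGF genes *Igf1*, *Igfals*, *Igfbp2* and *Igfbp3*. All 10 were present in every library and all 10 passed the filter on low counts, which kept 14328 genes. The list names genes by role and its rule uses no measured value, but it was chosen with earlier results of these data known.

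Bulk RNA was sequenced from the livers of 12-week-old C57BL/6 mice in 4 groups of 2 libraries. WT animals carried the floxed *HRD1* gene without Cre, and HRD1Alb animals carried it with a Cre driven by the albumin promoter, which is active in hepatocytes, so that other liver cells keep the gene; the labels write the genotype as Hrd1-/-. HRD1, listed under its symbol *Syvn1*, is a ubiquitin ligase of the endoplasmic reticulum that marks misfolded and regulated proteins for degradation. Each genotype was taken after an overnight fast (fasted) or after such a fast and 4 h of food (refed), and the labels do not give the sex of the animals or say which libraries were processed together. The comparisons ask how the loss of HRD1 and the return of food alter liver transcripts.

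Growth hormone binds its receptor on hepatocytes and activates the kinase JAK2, which phosphorylates STAT5A and STAT5B. These enter the nucleus and switch on *Igf1*, the gene of the growth factor that the liver releases into blood, and *Igfals*, whose product holds IGF1 in a complex with IGFBP3. STAT5 also switches on *Socs2* and *Cish*, which damp the receptor, and represses *Bcl6*, a repressor that competes for some STAT5 sites. The pattern of growth hormone pulses differs between the sexes in rodents, and it sets many of the sex differences in liver gene expression.

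Promoter sequence was examined first, because STAT5 binds DNA through the palindrome TTCNNNGAA, a motif that reads alike on both strands and overlaps the motif bound by BCL6. RefSeq windows on GRCm38.p6 of 250 bases before and 50 bases after a transcription start were available for 9 of the 10 genes, in 16 windows, and *Socs2* had none in the table used. TTCNNNGAA occurred in 5 of the 16 windows and in 3 of the 9 genes, *Igfals*, *Cish* and *Bcl6*. Among all 32851 windows, 8.3% held TTCNNNGAA and 0.457% held it at least 2 times, and 9.55% of all genes with a window held it. For each of these 3 genes 1 window is shown, to let its matches be seen in capitals, and 1 further window each of *Igfals* and *Bcl6*, with a single match, is not printed. They lie at chr9:107296409-107296708 on the plus strand for *Cish*, chr17:24877981-24878280 on the plus strand for *Igfals*, and chr16:23981234-23981533 on the minus strand for *Bcl6*.
Cish: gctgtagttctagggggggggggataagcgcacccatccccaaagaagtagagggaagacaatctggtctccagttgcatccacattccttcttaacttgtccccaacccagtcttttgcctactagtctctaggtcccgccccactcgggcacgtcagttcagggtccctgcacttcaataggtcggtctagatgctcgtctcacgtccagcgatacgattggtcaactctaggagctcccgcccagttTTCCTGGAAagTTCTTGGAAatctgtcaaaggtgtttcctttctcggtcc
Igfals: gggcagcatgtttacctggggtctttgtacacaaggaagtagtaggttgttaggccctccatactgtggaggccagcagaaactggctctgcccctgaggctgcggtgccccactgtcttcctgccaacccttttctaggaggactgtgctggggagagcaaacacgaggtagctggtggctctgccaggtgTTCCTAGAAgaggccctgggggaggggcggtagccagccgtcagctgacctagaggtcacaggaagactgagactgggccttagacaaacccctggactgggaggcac
Bcl6: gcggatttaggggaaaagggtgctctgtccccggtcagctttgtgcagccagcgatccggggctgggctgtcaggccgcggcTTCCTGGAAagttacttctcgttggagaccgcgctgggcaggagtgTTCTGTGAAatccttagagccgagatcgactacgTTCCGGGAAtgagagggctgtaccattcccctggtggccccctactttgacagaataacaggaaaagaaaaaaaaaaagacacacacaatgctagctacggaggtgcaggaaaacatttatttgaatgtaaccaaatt
The *Cish* window held 2 matches, TTCCTGGAA and TTCTTGGAA, the *Igfals* window held 1, TTCCTAGAA, and the *Bcl6* window held 3, TTCCTGGAA, TTCTGTGAA and TTCCGGGAA. The *Bcl6* window shown belongs to a second start, whose transcribed bases were not found in the GENCODE transcripts. A match is a run of letters and not a measured binding site.

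Before any comparison, the libraries were checked against their labels. Library totals ran from 40210576 to 49117080 counts, so that 3 counts correspond to 0.0611 to 0.0746 CPM, counts scaled to a common library size, before normalization. *Syvn1* was at 111 and 99.8 normalized CPM in the fasted WT libraries and at 32.6 and 31.5 in the fasted HRD1Alb libraries. After refeeding it was at 637 and 305 in WT, at 453 in the library labelled HRD1Alb refed 1 and at 132 in HRD1Alb refed 2. On *Syvn1* the library labelled HRD1Alb refed 1 thus lay between the refed WT libraries, which goes against its label, although a count per symbol cannot show the loss of single exons. On *Hsd3b5* and *Cyp2a22*, read below, it lay on the side of the HRD1Alb libraries. These genes were picked for a small p in genotype contrasts that use this library under its label, so they cannot check the label. *Hsd3b5* was at 0.389 CPM, against 99.2 and 103 in refed WT, and *Cyp2a22* at 256 CPM, against 6.25 and 14.1. The refed HRD1Alb libraries also differed from each other at least 2-fold in 3204 genes (22.4% of those tested), against 2.96% to 7.96% in the other groups. The ratio of HRD1Alb refed 2 to HRD1Alb refed 1 fell with transcript length (Spearman rho of -0.505 across genes, against -0.118 to 0.0101 in the other groups). Which of the 2 libraries carries this trend was not tested. The main values that use the refed HRD1Alb group are therefore given with and without the library labelled HRD1Alb refed 1. Without it HRD1Alb refed 2 is alone in its group, so the second value is not a corrected one. For some genes the value without HRD1Alb refed 2 is given as well. The model shares its estimate of the spread over all groups, and leaving out either refed HRD1Alb library raised the share of genes called also in the contrasts that do not use that group. *Ddx3y*, a Y-linked gene, was read at 55.2 to 121 CPM in all 8 libraries, and *Xist*, made from the inactive X chromosome of females, did not exceed 0.508 CPM.

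Markers of liver cell types moved with genotype. The summed level of 8 hepatocyte markers was 113000 to 151000 CPM in WT and 65800 to 104000 CPM in HRD1Alb libraries, with means lower in HRD1Alb for all but 1 marker. Most of the sum was *Alb*, at 79500 to 111000 CPM in WT and 47800 to 76600 CPM in HRD1Alb. In HRD1Alb refed 2, *Ttr* (6569 CPM) and *F2* (2021 CPM) were above every WT library. All 10 Kupffer cell markers had higher means in HRD1Alb liver, with sums of 326 to 730 CPM against 131 to 148 CPM, and so did all 10 stellate and fibroblast markers, with sums of 425 to 581 CPM against 197 to 435 CPM. Sums were 207 to 249 against 191 to 223 CPM for 10 sinusoidal endothelial markers, 29.3 to 53.3 against 32.2 to 68.7 CPM for 7 cholangiocyte markers, and 15.5 to 25 against 7.91 to 10.8 CPM for 8 lymphocyte and neutrophil markers. In bulk RNA, fewer cells of a type and less RNA per cell cannot be told apart, and the part of these shifts in the results below was not tested.

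Transcript levels of the 10 genes spanned a wide range. On the scale of CPM per kilobase of merged exons, the medians over the 8 libraries ran from 502 for *Igfbp2* through 53.7 for *Igf1*, 36 for *Ghr* and 28.7 for *Igfals* to 9.36 for *Igfbp3* and 9.17 for *Stat5b*. *Bcl6* followed at 3.73, *Stat5a* at 2.52, *Socs2* at 1.65 and *Cish* at 1.06 CPM per kilobase. The neighbours *Igfbp3* and *Stat5b* overlapped over the libraries, as did *Igf1* and *Ghr*, and *Ghr* and *Igf1* changed places when the longest transcript was used as the length.

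**Figure D1:**
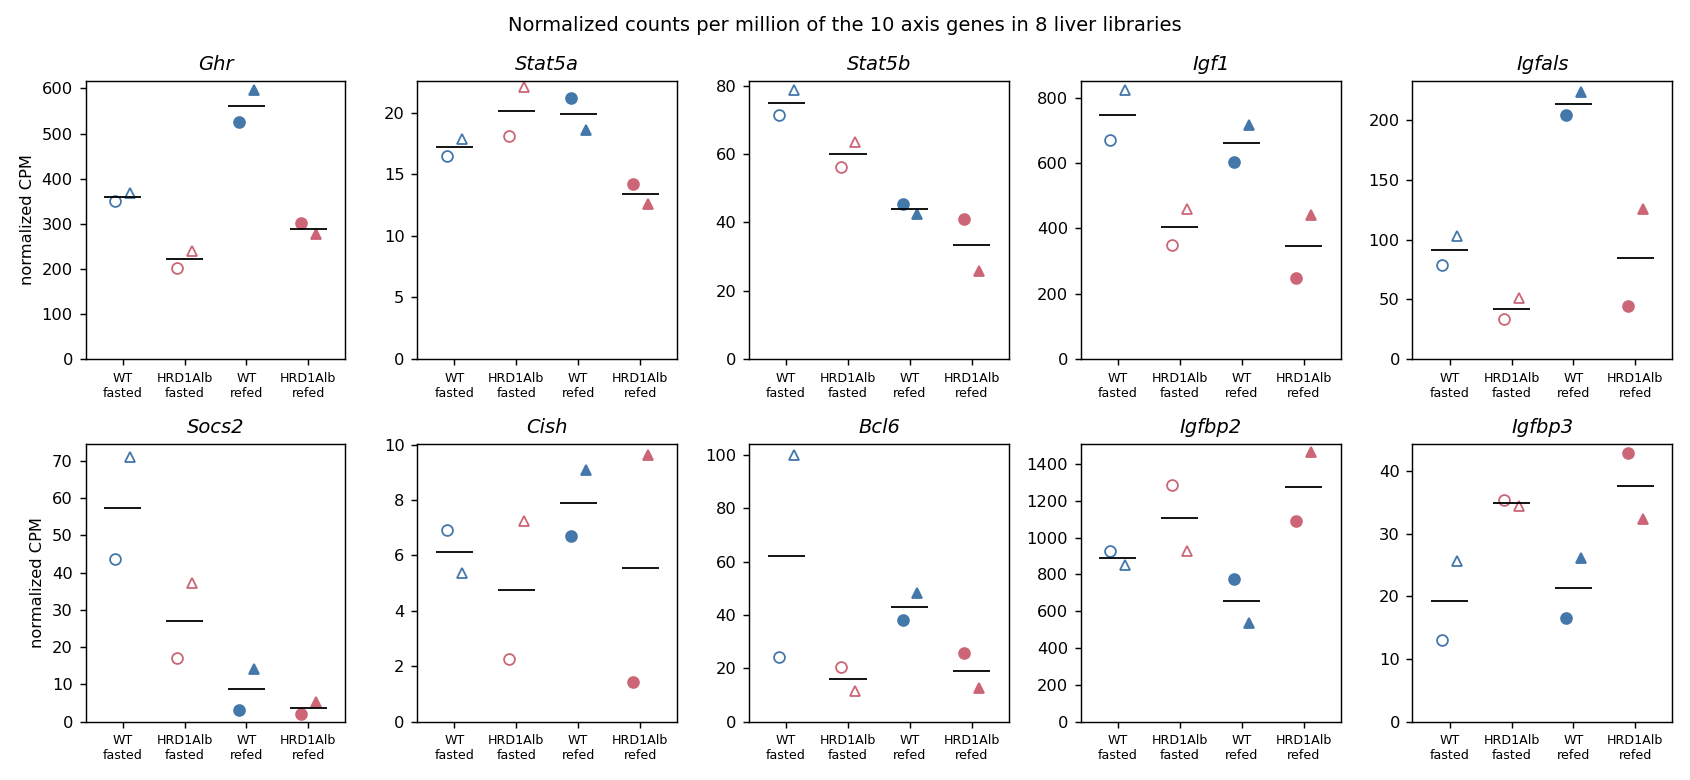
Normalized CPM (y axes, from 0, 1 panel per gene) in the 2 libraries of each of 4 groups (x axes). Circles are replicate 1, triangles replicate 2, open symbols fasted and filled symbols refed, blue WT and red HRD1Alb, and bars are group means. *Ghr* and *Igf1* are lower in every HRD1Alb library than in any WT library, and *Socs2* is lowest after refeeding.

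*Ghr*, the receptor that starts the pathway, was lower in HRD1Alb liver in both feeding states. It was at 350.2 and 369 normalized CPM in fasted WT, and at 203 and 239.7 in fasted HRD1Alb. In the refed groups it was at 526 and 597 in WT, and at 302 and 277 in HRD1Alb. The highest HRD1Alb library lay below the lowest WT library. In refed liver the difference was -0.96 ± 0.16 (log2 fold change ± SE, adjusted p = 0.019, edgeR's quasi-likelihood test with Benjamini-Hochberg adjustment over all tested genes). This made *Ghr* the only 1 of the 10 genes to pass the threshold of 0.05 in refed liver, where 11.9% of all tested genes passed and 4.84% passed in this direction. At an unadjusted p under 0.05 there were 5 of 10, against 33.3% of all genes, and DESeq2 called 5 and limma 1. Without the library labelled HRD1Alb refed 1 the value was -1.03, and without HRD1Alb refed 2 it was -0.90. With a correction for transcript length it was -0.67 (adjusted p = 0.0447, edgeR). The call was lost without WT refed 1 or WT refed 2 and without HRD1Alb fasted 1 or 2. A fit to the 4 compared libraries alone lost it too, and called 0% of all genes. In fasted liver the difference was -0.70 ± 0.16 (adjusted p = 0.0885, edgeR).

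None of the 10 genes passed in fasted liver, where 1.35% of all tested genes did. At an unadjusted p under 0.05 the count was 5 of 10, against 18.4% of all genes, and DESeq2 called 2 (*Ghr* and *Bcl6*) and limma 0. Leaving out the library labelled HRD1Alb refed 1 called 3, *Ghr* at -0.70 (adjusted p = 0.0107, edgeR), *Igf1* at -0.89 (adjusted p = 0.015) and *Igfals* at -1.12 (adjusted p = 0.0146), in a fit that called 21.7% of all genes. Leaving out HRD1Alb refed 2 called the same 3 genes and 21.3% of all genes. In a comparison of 2 against 2 libraries, an exact permutation test of a single gene cannot give a two-sided p below 0.333, so the calls rest on the spread shared over genes. Nothing in the labels says whether the 2 libraries of a group came from separate animals, and the p-values measure only the spread between these libraries.

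Averaged over the feeding states, 3 of the 10 genes were lower in HRD1Alb liver and none higher, against 7.78% lower and 19.1% in either direction among all tested genes. At an unadjusted p under 0.05 the count was 6 of 10, against 35.5%. These were *Ghr* at -0.83 ± 0.12 (adjusted p = 0.0062, edgeR), *Igf1* at -0.91 ± 0.21 (adjusted p = 0.025) and *Igfals* at -1.22 ± 0.32 (adjusted p = 0.0376). The median log2 fold change of the 10 genes was -0.636, beside 0.005 over all tested genes, and -0.64 beside -0.019 without the library labelled HRD1Alb refed 1. *Ghr* kept its call in all 16 alternative fits. *Igf1* and *Igfals* lost theirs when any of the 4 WT libraries or either fasted HRD1Alb library was left out, with adjusted p of 0.0635 to 0.114 for *Igf1* and 0.0841 to 0.147 for *Igfals* (edgeR). The correction for transcript length ended the call of *Igf1* as well (-0.71, adjusted p = 0.11, edgeR). With the library labelled HRD1Alb refed 1 left out, 7 of the 10 genes passed, in a fit that called 54% of all genes.

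**Figure D2:**
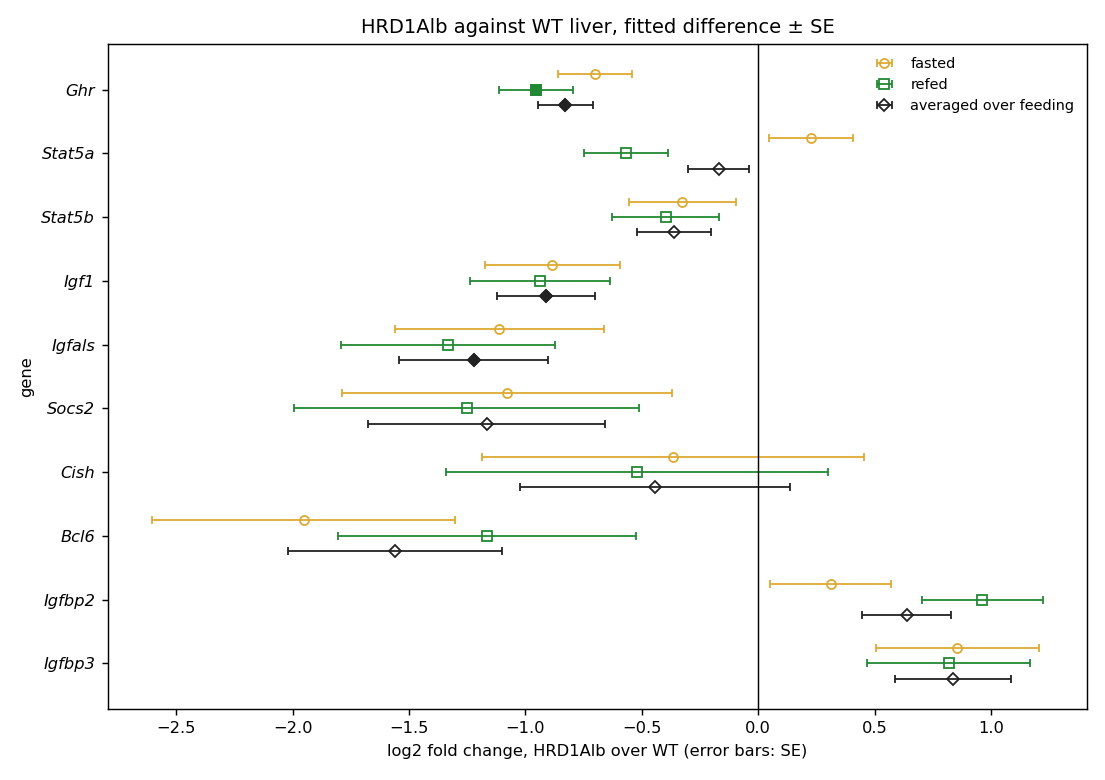
Log2 fold change of HRD1Alb over WT (x axis) for the 10 genes (y axis) in fasted liver (circles), in refed liver (squares) and averaged over feeding (diamonds), with bars for 1 SE and filled symbols for an adjusted p under 0.05. Filled symbols are *Ghr* in refed liver at -0.96 and *Ghr*, *Igf1* and *Igfals* averaged over feeding, all to the left of 0.

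*Stat5b*, the main STAT5 of male liver, had lower values in the refed than in the fasted libraries of both genotypes. It was at 71.5 and 78.8 CPM in fasted WT, 56.3 and 63.6 in fasted HRD1Alb, 45.3 and 42.6 in refed WT, and 40.9 and 25.8 in refed HRD1Alb. The refed and fasted libraries of a genotype did not overlap. The refeeding differences were -0.77 ± 0.23 in WT (adjusted p = 0.146, edgeR) and -0.85 ± 0.23 in HRD1Alb (adjusted p = 0.0584, edgeR), and neither passed. The second was -1.22 without the library labelled HRD1Alb refed 1, -0.55 without HRD1Alb refed 2 and -0.75 with the correction for transcript length. Between genotypes the differences were -0.33 ± 0.23 fasted (adjusted p = 0.507, edgeR) and -0.40 ± 0.23 refed (adjusted p = 0.253, edgeR). The refed genotype value was -0.78 without the library labelled HRD1Alb refed 1 and -0.11 without HRD1Alb refed 2.

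*Stat5a*, its close paralog, was at 16.5 and 17.9 CPM in fasted WT and at 18.1 and 22.1 in fasted HRD1Alb. After refeeding it was at 21.1 and 18.6 in WT and at 14.2 and 12.6 in HRD1Alb. HRD1Alb libraries were thus the higher ones when fasted and the lower ones when refed. The interaction of genotype with feeding was -0.79 ± 0.25, with an unadjusted p of 0.0155 in edgeR and an adjusted p of 0.561. No gene of the 14328 passed for the interaction (percent called 0), *Stat5a* was the only 1 of the 10 genes at an unadjusted p under 0.05 (8.44% of all genes), and DESeq2 and limma called 0 of the 10. With the library labelled HRD1Alb refed 1 left out it passed (adjusted p = 0.0157), in a fit that called 33.4% of all genes. *Stat5a* made up 15% to 27.5% of the summed *Stat5a* and *Stat5b* level per kilobase, and reads that fit both paralogs could move this share.

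Among the feedback and response genes, *Socs2*, a suppressor of the receptor, had the largest fitted difference between the feeding states. It was at 43.6 and 71.1 CPM in fasted WT, 17.2 and 37.1 in fasted HRD1Alb, 3.23 and 14.2 in refed WT, and 2.18 and 5.17 in refed HRD1Alb. Refed libraries lay below the fasted libraries of their genotype without overlap. The refeeding differences were -2.72 ± 0.75 in WT (adjusted p = 0.126, edgeR) and -2.89 ± 0.77 in HRD1Alb (adjusted p = 0.0548, edgeR). The second was -2.39 without the library labelled HRD1Alb refed 1 and -3.63 without HRD1Alb refed 2. The genotype differences were -1.08 ± 0.71 fasted (adjusted p = 0.48, edgeR) and -1.25 ± 0.74 refed (adjusted p = 0.263, edgeR). The refed value was -0.76 without the library labelled HRD1Alb refed 1 and -2.00 without HRD1Alb refed 2. It was 0.17, with the sign turned, without WT refed 2.

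*Cish*, which competes with STAT5 for the receptor, was low, and among the 10 genes it had the largest ratio between the libraries of each HRD1Alb group. It was at 6.91 and 5.35 CPM in fasted WT, 2.27 and 7.23 in fasted HRD1Alb, 6.72 and 9.09 in refed WT, and 1.44 and 9.62 in refed HRD1Alb. The genotypes overlapped in both feeding states, and the averaged difference was -0.44 ± 0.58 (adjusted p = 0.603, edgeR). It was -0.04 (adjusted p = 0.927, edgeR) without the library labelled HRD1Alb refed 1 and -1.41 (adjusted p = 0.031, edgeR) without HRD1Alb refed 2. Its gene has the window with 2 TTCNNNGAA matches shown above.

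*Bcl6* was at 24.3 and 99.8 CPM in fasted WT and at 20.4 and 11.6 in fasted HRD1Alb. With food returned it was at 38.1 and 48.1 in WT and at 25.7 and 12.7 in HRD1Alb. WT libraries were higher within each feeding state, and the library labelled HRD1Alb refed 1 lay just above the lower fasted WT library. The averaged difference was -1.56 ± 0.46 and did not pass (adjusted p = 0.0529, edgeR). It was -0.87 (adjusted p = 0.127, edgeR) without WT fasted 2, and -1.86 (adjusted p = 0.0163, edgeR) without the library labelled HRD1Alb refed 1.

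*Igf1*, the liver's secreted growth factor, was lower in HRD1Alb liver whether fasted or refed. It was at 672 and 822 CPM in fasted WT and at 349.8 and 459 in fasted HRD1Alb. After refeeding it was at 604 and 716 in WT and at 249 and 441 in HRD1Alb. No HRD1Alb library reached the lowest WT library. Within 1 feeding state the differences were -0.88 ± 0.29 fasted (adjusted p = 0.176, edgeR) and -0.94 ± 0.30 refed (adjusted p = 0.0784, edgeR). The latter was -0.59 without the library labelled HRD1Alb refed 1 and -1.41 without HRD1Alb refed 2. With the correction for transcript length it was -0.53 (adjusted p = 0.371, edgeR).

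*Igfals*, which encodes the acid labile subunit of the circulating IGF complex, was at 78.7 and 103 CPM in fasted WT and at 33.2 and 51 in fasted HRD1Alb. Refed, it was at 204 and 223 in WT and at 44.4 and 125 in HRD1Alb. Genotypes did not overlap within a feeding state, and the refed HRD1Alb libraries were far apart. The refed difference was -1.33 ± 0.46 (adjusted p = 0.0923, edgeR) with both. It was -0.78 without the library labelled HRD1Alb refed 1 and -2.27 without HRD1Alb refed 2. With the correction for transcript length it was -1.51 (adjusted p = 0.0496, edgeR). The summed hepatocyte markers, mostly *Alb*, were also lower in HRD1Alb libraries. They stand beside the values of *Ghr*, *Igf1* and *Igfals*, all genes of hepatocytes. Of the 8 markers only *Apob* was called averaged over feeding, and a link between them and these genes was not tested.

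The binding protein genes had higher fitted levels in HRD1Alb liver, and neither passed. *Igfbp2*, the most abundant of the 10 transcripts, was at 930 and 850.5 CPM in fasted WT and at 1285 and 926 in fasted HRD1Alb. After refeeding it was at 773 and 536 in WT and at 1089 and 1464 in HRD1Alb. The groups overlapped when fasted and not when refed. The refed difference was 0.96 ± 0.26 (adjusted p = 0.0562, edgeR), or 1.16 without the library labelled HRD1Alb refed 1 and 0.73 without HRD1Alb refed 2. With the correction for transcript length it was 0.59 (adjusted p = 0.116, edgeR). Averaged over feeding the difference was 0.64 ± 0.19 (adjusted p = 0.052, edgeR), or 0.73 without the library labelled HRD1Alb refed 1.

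*Igfbp3*, made largely by the non-parenchymal cells of the liver, was at 13 and 25.6 CPM in fasted WT and at 35.4 and 34.5 in fasted HRD1Alb. After 4 h of food it was at 16.5 and 26.2 in WT and at 42.9 and 32.4 in HRD1Alb. Every HRD1Alb library was above every WT library, and the averaged difference of 0.84 ± 0.25 did not pass (adjusted p = 0.0558, edgeR). It was 0.72 and passed (adjusted p = 0.041, edgeR) without the library labelled HRD1Alb refed 1, and it passed in 7 of 16 alternative fits. The summed Kupffer markers were also higher in every HRD1Alb than in every WT library, while the summed stellate markers overlapped, at 425 CPM in HRD1Alb refed 2 and 435 CPM in WT fasted 2. The summed sinusoidal endothelial markers overlapped as well, at 207 to 249 CPM in HRD1Alb and 191 to 223 CPM in WT. A link of these sums to *Igfbp3* was not tested. Per kilobase, *Igfbp3* was 0.0817 to 0.251 of *Igfals* in WT and 0.262 to 1.08 in HRD1Alb libraries, without overlap.

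Counting samples that did not overlap, 8 of the 10 genes separated the genotypes in fasted liver (6 lower and 2 higher in HRD1Alb) and 8 in refed liver (also 6 and 2), where 64.9% and 60.8% of all tested genes did. With all 4 libraries of each genotype, *Ghr* and *Igf1* were lower and *Igfbp3* was higher without overlap, 3 of 10 genes against 21.5% of all genes. Between the feeding states, 6 of the 10 genes did not overlap in WT (3 higher and 3 lower when refed) and 4 in HRD1Alb (1 and 3), where 60.4% and 58.7% of all genes did not. With the library labelled HRD1Alb refed 1 set aside, which leaves 1 library in its group, the counts were 9 in refed liver, 4 over all libraries and 8 for refeeding in HRD1Alb.

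Refeeding called none of the 10 genes in either genotype with edgeR, where it called 2.61% of all genes in WT and 10.5% in HRD1Alb liver. At an unadjusted p under 0.05 there were 4 of 10 in each, against 16.3% and 31.7% of all genes, DESeq2 called 3 in each and limma 0. In WT the 4 were *Ghr* (0.64 ± 0.16), *Igfals* (1.23 ± 0.45), *Stat5b* and *Socs2*, and in HRD1Alb they were *Ghr* (0.39 ± 0.16), *Stat5a* (-0.58 ± 0.18), *Stat5b* and *Socs2*. The HRD1Alb values depended on which refed HRD1Alb library was kept. *Igfals* was 1.57 without the library labelled HRD1Alb refed 1 and 0.08 without HRD1Alb refed 2, and *Stat5a* was -0.68 and -0.50. In WT liver, leaving out either of these libraries left *Ghr* at 0.64, *Stat5b* at -0.77, *Igfals* at 1.23 and *Socs2* at -2.72.

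**Figure D3:**
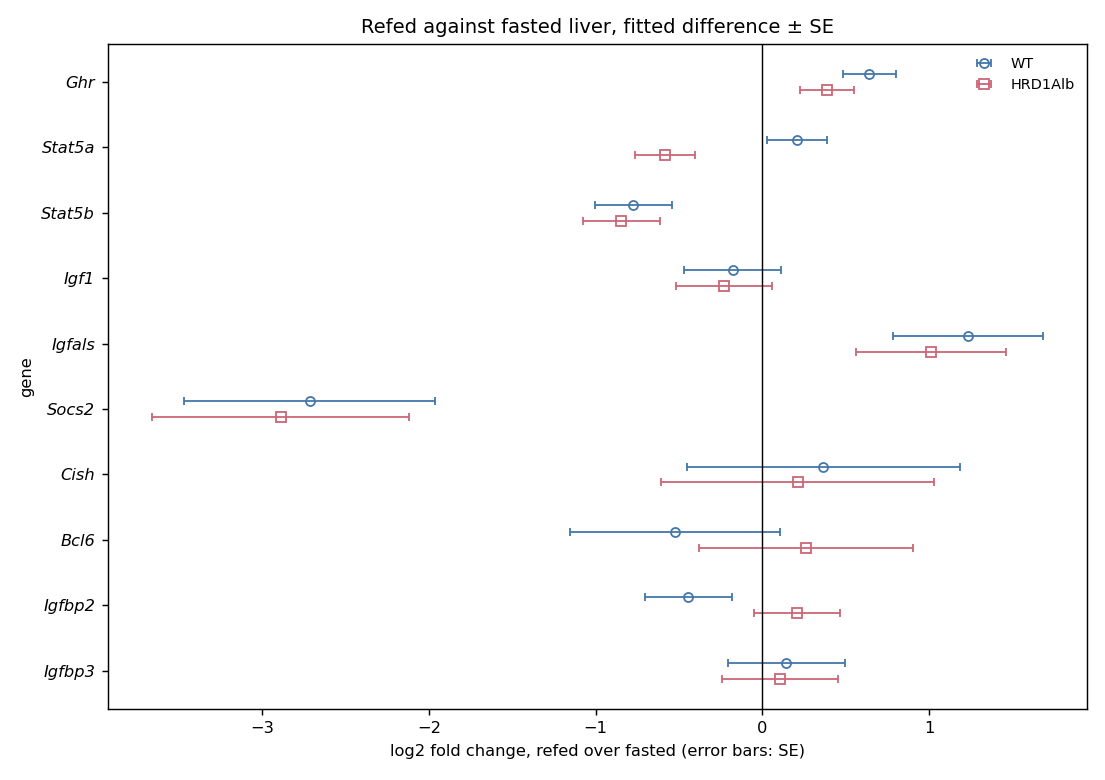
Log2 fold change of refed over fasted liver (x axis) for the 10 genes (y axis) in WT (circles) and HRD1Alb (squares), with bars for 1 SE. *Socs2* lies farthest from 0, at -2.72 in WT and -2.89 in HRD1Alb, and no value passed an adjusted p of 0.05.

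By Pearson correlation of log2 CPM over the 8 libraries, among 9484 genes with a mean of at least 5 CPM, *Ghr* was most like *Cml2* (0.991), *Pitpnc1* (0.989) and *Abcb10* (0.985). *Igf1* was most like *Plg* (0.996), *Lipc* (0.99) and *Tmprss6* (0.987), and *Igfals* was most like *Pdilt* (0.99), *Atg7* (0.988) and *Gjb1* (0.983). The closest genes to *Igfbp2* were *Esam* (0.961), *Pcif1* (0.96) and *Trmt1* (0.94). These are descriptions over libraries that share the 4 groups and their depths. For the same 12 pairs the correlations were 0.938 to 0.999 without the library labelled HRD1Alb refed 1.

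Other genes of the pathway were read from lists chosen for their roles. Of 21 tested genes of receptor signalling, 1 was called higher and 2 lower in HRD1Alb liver averaged over feeding. Among all tested genes 11.3% were called higher and 7.78% lower. *Sirpa* was the gene called higher, and *Prlr* was among those called lower. *Sirpa*, a receptor of macrophages and a docking site for phosphatases, was at 9.43 to 11.9 CPM in WT and at 25.7 to 38.1 CPM in HRD1Alb libraries (1.54 ± 0.15, adjusted p = 0.00221, edgeR), beside the higher Kupffer markers. *Prlr*, the prolactin receptor, was at 111 to 226 CPM in WT and at 75 to 97.6 CPM in HRD1Alb (-0.94 ± 0.22, adjusted p = 0.0257, edgeR). *Jak2*, the kinase bound to the receptor, was at 16.7 to 20.6 CPM in WT and at 10.9 to 17.8 CPM in HRD1Alb libraries, and did not pass (-0.26 ± 0.15, adjusted p = 0.238, edgeR). In refed liver *Sirpa* was called higher and *Prlr* lower, where 7.09% of all tested genes were called higher and 4.84% lower. In fasted liver *Sirpa* alone was called, where 0.921% of all tested genes were called higher and 0.433% lower. With the library labelled HRD1Alb refed 1 left out, the averaged values were 1.64 for *Sirpa*, -0.97 for *Prlr* and -0.43 for *Jak2*. In refed liver *Jak2* was at 16.2 CPM in the library labelled HRD1Alb refed 1 and 10.9 in HRD1Alb refed 2, beside 16.7 and 16.9 in WT.

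Of 14 further IGF genes, 12 were tested. Averaged over feeding, *Igfbp1* and *Igfbp7* were called higher and *Insr* lower, where 19.1% of all tested genes were called, 11.3% higher and 7.78% lower. *Igfbp1*, an insulin-repressed binding protein, was at 374 and 757 CPM in fasted WT and at 1138 and 645 in fasted HRD1Alb. After refeeding it was at 6.47 and 7.01 in WT, 53.7 in the library labelled HRD1Alb refed 1 and 15.1 in HRD1Alb refed 2. It was higher in HRD1Alb when averaged over feeding (1.5 ± 0.43, adjusted p = 0.0483, edgeR), and it fell with refeeding in WT (-6.39 ± 0.75, adjusted p = 0.0154, edgeR) and in HRD1Alb (-4.69 ± 0.69, adjusted p = 0.0117, edgeR). *Igfbp7* rose too (0.93 ± 0.21, adjusted p = 0.023, edgeR). *Pappa*, a protease of IGF binding proteins, was listed at no more than 0.0748 CPM in WT, about the floor of 3 counts, and at 0.11 to 0.215 CPM in HRD1Alb libraries. It passed the filter on low counts through the latter, so its call is not counted. *Insr*, the insulin receptor, fell (-0.66 ± 0.17, adjusted p = 0.0332, edgeR). By feeding state it was called lower in refed liver, where 4.84% of all tested genes were, and not in fasted liver. Its levels were 235.1 and 236.5 CPM in fasted WT and 202.3 and 184.7 in fasted HRD1Alb. Refed, they were 149.8 and 161.7 in WT, 94 in the library labelled HRD1Alb refed 1 and 57.1 in HRD1Alb refed 2. *Igf1r* stood at 1.47 to 4.48 CPM and *Igf2* at 0.296 to 0.706 CPM over all libraries, and neither passed (adjusted p = 0.78 and 0.88, edgeR). Without the library labelled HRD1Alb refed 1, which held the highest refed *Igfbp1*, its averaged value was 0.90 ± 0.29 (adjusted p = 0.0322, edgeR), while *Igfbp7* (0.97) and *Insr* (-0.87) kept their calls.

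Of 8 transcription factors linked to growth hormone in liver, *Tox* rose (0.96 ± 0.26, adjusted p = 0.0432, edgeR) and *Foxa1* fell (-0.50 ± 0.14, adjusted p = 0.0435, edgeR) averaged over feeding, where 19.1% of all tested genes passed. *Onecut1* was at 11.8 and 13.6 CPM in refed WT and at 3.33 and 4.69 in refed HRD1Alb (-1.66 ± 0.39, adjusted p = 0.0389, edgeR). Fasted, it was at 2.64 and 3.84 in WT and at 2.46 and 5.21 in HRD1Alb, with overlap. *Cux2*, a repressor more abundant in female liver, was at 1.12 and 10.8 CPM in fasted WT, 7.04 and 3.49 in fasted HRD1Alb and under 0.593 in all refed libraries, and did not pass (0.08 ± 0.68, adjusted p = 0.948, edgeR). With the library labelled HRD1Alb refed 1 left out, averaged values were 0.60 for *Tox* and -0.56 for *Foxa1*, and the refed value of *Onecut1* was -1.44 (adjusted p = 0.0276, edgeR).

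Sex-biased liver genes that depend on growth hormone pulses were read as a further group, and part of them was already known from these data to differ, so their direction is not independent evidence. All 20 male-biased genes had lower fitted levels in HRD1Alb liver, and 9 fasted, 12 refed and 17 averaged over feeding were called lower by edgeR, with medians of -3.76, -2.95 and -3.38, where 0.433%, 4.84% and 7.78% of all tested genes were called lower. *Hsd3b5*, a steroid dehydrogenase of male liver, was at 10.2 and 17 CPM in fasted WT and at 0.156 and 0.581 in fasted HRD1Alb. Upon refeeding it was at 99.2 and 103 in WT, 0.389 in the library labelled HRD1Alb refed 1 and 1.97 in HRD1Alb refed 2. *Slco1a1*, an organic anion transporter, was at 386 to 448 CPM in WT and at 35.3 to 106 CPM in HRD1Alb libraries (-2.56 ± 0.21, adjusted p = 0.00156, edgeR). With at least 10 counts required in every sample, 18 of the 20 were tested and 6 fasted, 10 refed and 15 averaged were called lower. The fasted and refed counts depended on single libraries. With 1 fasted or 1 refed WT library left out, 0 or 1 of the 20 was called in fasted liver, and 18 were called there, with 21.7% or 21.3% of all genes, when the library labelled HRD1Alb refed 1 or HRD1Alb refed 2 was left out. Without WT refed 1 or WT refed 2, 0 were called in refed liver. Leaving out the library labelled HRD1Alb refed 1 called 13 in refed liver and 19 averaged over feeding, in fits that called 52.8% and 54% of all genes, and put *Slco1a1* at -2.38.

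Of 23 female-biased genes, 21 were tested, and 4 fasted, 4 refed and 9 averaged over feeding were called higher by edgeR, where 0.921%, 7.09% and 11.3% of all tested genes were. *Cyp2a22*, a cytochrome P450, was at 1.72 to 14.1 CPM in WT and at 120 to 256 CPM in HRD1Alb libraries (5.03 ± 0.38, adjusted p = 0.00134, edgeR). *Cyp2b13* was at no more than 0.0263 CPM in WT, within 3 counts per library, and at 6.87 to 20.2 CPM in HRD1Alb libraries. Some genes of this list, among them *Cyp2b13* and *Hao2* (at most 0.105 CPM in WT), passed the filter on low counts only through HRD1Alb libraries and had to differ, so the counts are a description. With at least 10 counts required in every sample, 16 genes were tested and 1 fasted, 1 refed and 5 averaged were called higher. The fitted levels were higher for 14 and lower for 7 of the 21 averaged over feeding, with a median of 1.92, or 0.2 with that stricter filter, and *Prlr*, which is also on this list, was called lower. The counts of 4 were 0 to 2 in fasted liver with 1 fasted or 1 refed WT library left out and 9 there with either refed HRD1Alb library left out, 0 in refed liver without WT refed 1 or WT refed 2, and 9 in refed liver, with 52.8% of all genes, without the library labelled HRD1Alb refed 1. That last setting called 10 averaged over feeding and gave 4.91 for *Cyp2a22*. The *Mup* and *Cyp* genes have near-identical copies, among which the counting may have split reads.

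**Figure D4:**
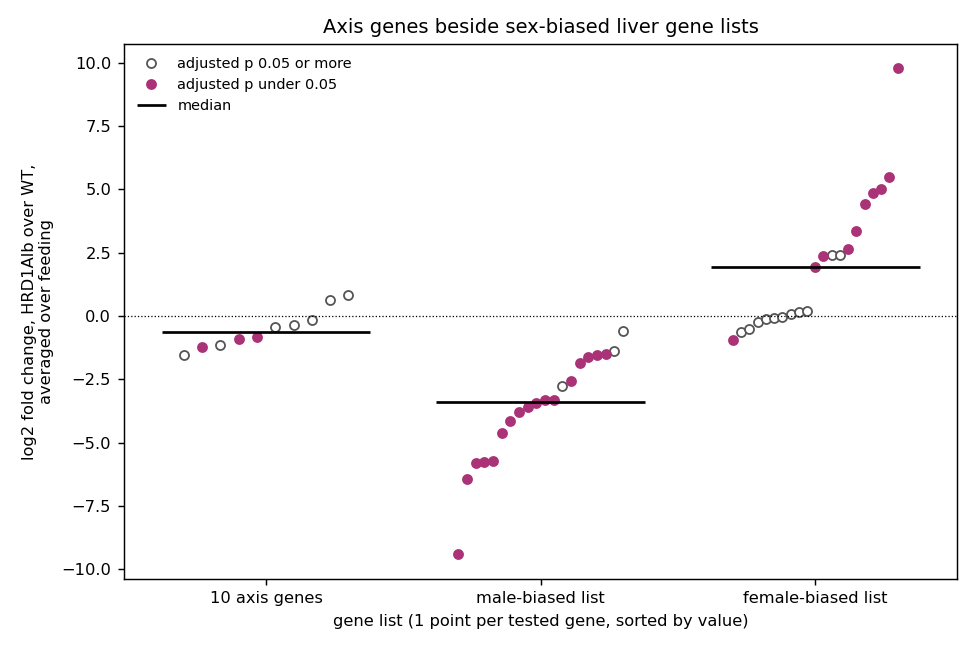
Log2 fold change of HRD1Alb over WT averaged over feeding (y axis), 1 point per tested gene, for the 10 axis genes and for the male-biased and female-biased lists (x axis), with filled points for an adjusted p under 0.05 and lines for medians. The medians are -0.64 for the 10 genes, -3.38 for the male-biased and 1.92 for the female-biased genes, and without the library labelled HRD1Alb refed 1 they are -0.64, -3.37 and 1.62. With at least 10 counts in every sample the female-biased median is 0.2, over 16 genes.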

How the data were processed

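Bulk RNA-seq was made from 8 liver samples, 2 in each of 4 groups, and samples were grouped by their labels. The authors deposited whole-number counts per gene symbol, without normalization. The study's methods name ERANGE for counting, while the submitters' processing notes list cutadapt, STAR, HTSeq, DESeq2 and mm10, and which of these made the files is not given in the sources used here. The tests used edgeR 4.0.16 (R 4.3.3). Low genes were removed by filterByExpr (minimum count 10, minimum total 15), library sizes were scaled by TMM, and 1 quasi-likelihood model with 4 group coefficients was fitted to all 8 libraries. P-values were adjusted by Benjamini-Hochberg over all 14328 tested genes of a contrast, and a gene was called under 0.05. Normalized CPM are from edgeR. The SE was derived from the fold change and its F statistic. Correlations used log2 CPM with a prior count of 1. Lengths came from GENCODE M21 on GRCm38 and promoters from RefSeq. Depth was 40210576 to 49117080 counts, and floors of 3 counts cover counting error only.

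The 10 genes and the other lists were chosen with earlier results of these data known. Named genes were the 10, *Syvn1*, *Jak2*, *Onecut1*, *Cux2*, *Prlr*, *Igfbp1*, *Igf1r* and *Igf2*, and from each list up to 4 called genes of smallest p per genotype contrast, of which the text gives a part, and 1 gene of the receptor signalling list is not reported here; likeness was computed for the 4 members of smallest averaged p. *Adgre1* was matched as *Emr1*, and 1 neutrophil marker was not matched. Alternatives were RLE size factors, DESeq2 1.42.0, limma-trend (limma 3.58.1), other count filters, a fit to the 4 compared libraries alone, a block for replicate number, a transcript length correction, and each library left out. Those for the sex-biased lists were added after seeing the data. Statistical steps were tested on simulated data, and figures were drawn with matplotlib 3.10.9.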

Additional observations from a re-analysis of the deposited data

How the results depend on the processing

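Of 1000 fold changes of the 10 genes under alternative settings, 842 kept their direction and side of the threshold, 18 lost a call, 86 gained one and 54 changed sign. No called value changed sign, and 51 of the 54 were refeeding or interaction values.

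In counts of the 10 genes called, DESeq2 gave 2 fasted, 5 refed, 3 for WT refeeding, 3 for HRD1Alb refeeding and 7 averaged, against 0, 1, 0, 0 and 3 with edgeR. Using only the 4 samples of a contrast gave 3 fasted, 0 refed and 4 for WT refeeding. No filter on low counts gave 2 refed, 1 for HRD1Alb refeeding and 6 averaged. The transcript length correction gave 2 refed and 2 for HRD1Alb refeeding. The replicate block gave 3 refed, 1 for WT refeeding, 1 for HRD1Alb refeeding and 5 averaged, and with the length correction 1 fasted, 3 refed, 2 for WT refeeding, 3 for HRD1Alb refeeding and 5 averaged. Same-numbered libraries deviated together only weakly (r of 0.0161 to 0.179 over 6 pairs of groups), so the numbers were not taken as pairs. Leaving out 1 library gave 0 to 3 fasted, 0 to 5 refed, 0 to 4 for WT refeeding, 0 to 3 for HRD1Alb refeeding, 0 to 1 for the interaction and 1 to 7 averaged.

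For the male-biased list, counts called lower were 18 fasted with DESeq2, 15 without a filter, 18 with only the 4 samples and 14 with the length correction, and 0 refed with only the 4 samples. With 1 library left out they were 0 to 18 fasted, 0 to 14 refed and 11 to 19 averaged, the 18 without either refed HRD1Alb library and the 11 without HRD1Alb fasted 1. For the female-biased list, counts called higher were 8 fasted and 8 refed with DESeq2, 7 refed without a filter, 7 fasted and 0 refed with only the 4 samples, and 1 fasted, 1 refed and 5 averaged with at least 10 counts in every sample. With 1 library left out they were 0 to 9 fasted, 0 to 9 refed and 5 to 11 averaged.

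Signs changed as follows. With limma, *Cish* in HRD1Alb refeeding was -0.12 and the *Socs2* interaction 0.13. With the replicate block the *Socs2* interaction was 0.0772. With the length correction, HRD1Alb refeeding was 0.23 for *Igf1*, -0.17 for *Igfbp2* and -0.04285 for *Igfbp3* (with the block 0.13, -0.15 and -0.02177), and interactions were 0.0376 for *Ghr*, 0.0099 for *Stat5b*, 0.37 for *Igf1*, 0.23 for *Socs2* and 0.12 for *Cish* (with the block 0.0352, 0.006657, 0.26, 0.41 and 0.088). Leaving out 1 library gave genotype differences of -1.44 to 0.23 for *Cish* fasted, -2.46 to 0.28 for *Cish* refed and -2.00 to 0.17 for *Socs2* refed. It gave WT refeeding differences of -0.32 to 0.00463 for *Igf1*, -1.21 to 0.86 for *Bcl6* and -0.27 to 0.75 for *Igfbp3*. HRD1Alb refeeding ran from -0.70 to 0.12 for *Igf1*, -1.72 to 1.27 for *Cish*, -0.34 to 0.72 for *Bcl6*, -0.0227 to 0.46 for *Igfbp2* and -0.11 to 0.29 for *Igfbp3*. Interactions ran from -0.45 to 0.22 for *Stat5b*, -0.52 to 0.30 for *Igf1*, -1.16 to 0.34 for *Igfals*, -0.91 to 1.26 for *Socs2*, -2.09 to 0.91 for *Cish*, -0.60 to 1.47 for *Bcl6* and -0.64 to 0.37 for *Igfbp3*. The cause was not tested. All 10 genes lay above the floor of 3 counts in every library.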
